A study of Mus musculus with 12 samples.

Results

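The genes described here are 10 members of the pappalysin and insulin-like growth factor (IGF) binding protein axis: the pappalysins Pappa2 and Pappa, the stanniocalcins Stc1 and Stc2, the binding proteins Igfbp2, Igfbp3, Igfbp4, Igfbp5 and Igfbp7, and the receptor Igf1r. They were taken by gene symbol, and all 10 were found among the 23378 genes of the count table. Of these, 8 held enough reads to be tested, while Stc2 and Igfbp2 did not and are given by their counts. RNA was sequenced from cells sorted from the kidney cortex of C57BL/6 mice of the genetic model nNosCreERT2-mTmG, which all groups share. In these mice a tamoxifen-activated Cre recombinase made under the neuronal nitric oxide synthase gene switches membrane tdTomato (red) to membrane eGFP (green), so the sort marks cells by their use of that gene. Green cells were collected as macula densa cells, the salt-sensing plaque of the distal nephron that faces the glomerulus. The cells brightest in red were collected as control cells meant to stand for distal tubule and collecting duct. For 14 days mice received control diet (2 macula densa and 4 control-cell libraries) or a diet low in salt together with enalapril, a blocker of angiotensin formation, in their water at 150 mg/L (again 2 and 4 libraries). The second condition is called LS in the text and low salt plus enalapril in the plots. Neither the age of the mice nor the number of mice behind each library is given in the sources used here. If the libraries are not from separate mice, p-values measure only the spread between these libraries.

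IGFs circulate and lie in tissue bound to IGF binding proteins, which keep them from the receptor made from Igf1r. Pappalysins are secreted zinc proteases that cut particular binding proteins and so release the bound IGF. The product of Pappa2 cuts the proteins made from Igfbp3 and Igfbp5, and that of Pappa cuts those made from Igfbp4, Igfbp5 and Igfbp2, while stanniocalcins block both proteases. Pappa2 is a known marker of macula densa cells in the kidney. Transcript levels do not measure protein, cleavage or free IGF.

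The coding sequences that make the pappalysins one family are shown first, because both pappalysin genes were measured well and their patterns differed. Each line gives the sense strand 5′ to 3′ from the GENCODE M21 transcripts on GRCm38, with the codons of the zinc-binding motif of the active site in capitals. The Pappa2 stretch lies in exon 4 at chr1:158857327-158857377 on the minus strand, and the Pappa stretch in exon 4 at chr4:65180911-65180961 on the plus strand.
Pappa2: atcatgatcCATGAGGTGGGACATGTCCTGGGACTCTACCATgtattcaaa
Pappa: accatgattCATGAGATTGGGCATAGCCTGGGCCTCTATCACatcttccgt
Of the 33 bases in capitals, 25 were identical. The next lines show, for 4 binding proteins, the codons of the cysteine motif of the IGF-binding domain in capitals. They lie in exon 1 at chr1:72824769-72824810 (plus), chr11:7213557-7213598 (minus), chr11:99041641-99041682 (plus) and chr1:72873957-72873998 (minus).
Igfbp2: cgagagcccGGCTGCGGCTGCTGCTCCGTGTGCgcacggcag
Igfbp3: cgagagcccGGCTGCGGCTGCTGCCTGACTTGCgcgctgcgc
Igfbp4: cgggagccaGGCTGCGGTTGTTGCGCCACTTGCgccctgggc
Igfbp5: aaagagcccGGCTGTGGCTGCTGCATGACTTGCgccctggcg
Of the 24 bases in capitals, Igfbp3 shared 22 with Igfbp5, Igfbp4 shared 18 and Igfbp2 shared 17. The search asked for the exact pattern, with its first glycine, and did not find it in Igfbp7, a member of the wider family known for weak IGF binding. A stretch with the same cysteines but another first residue would have been missed, so no lack of cysteines is shown. Igfbp2 and Igfbp5 are neighbours on chromosome 1 with their ends 5457 bp apart, on opposite strands.

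Total counts per library ranged from 4259034 to 14856540, and a level of 3 counts, used here as the floor of detection, corresponded to 0.231 to 0.734 CPM (the count scaled to the library total after TMM normalization). Between 53.5% and 65.0% of counts fell on Gm42418, which lies over ribosomal RNA sequence. Over 6 macula densa markers that leave out Pappa2, the green libraries had a summed level of 2051 to 2506 CPM, against 84.4 to 445 CPM in control cells. The list includes Nos1, the gene of neuronal nitric oxide synthase used for the sort, and Slc12a1, which is also a thick ascending limb marker. The sum is therefore no independent check of the sort. Nos1 and Ptgs2 averaged 141 and 78.4 CPM in the green libraries. The control cells did not hold only the labelled segments. In 5 of the 8 control-cell libraries, 10 endothelium markers summed to between 1015 and 1830 CPM and 8 podocyte markers to between 735 and 1462 CPM. The remaining 3, which are replicate 4 on control diet and replicates 1 and 3 on LS, held 57.1 to 416 CPM and 46.2 to 225 CPM of these lists. Each of these 3 has a description number that no macula densa library shares, while 4 of the 5 with high sums share theirs with a macula densa library. In bulk libraries, fewer cells of a type and less RNA per cell cannot be told apart.

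**Figure D1:**
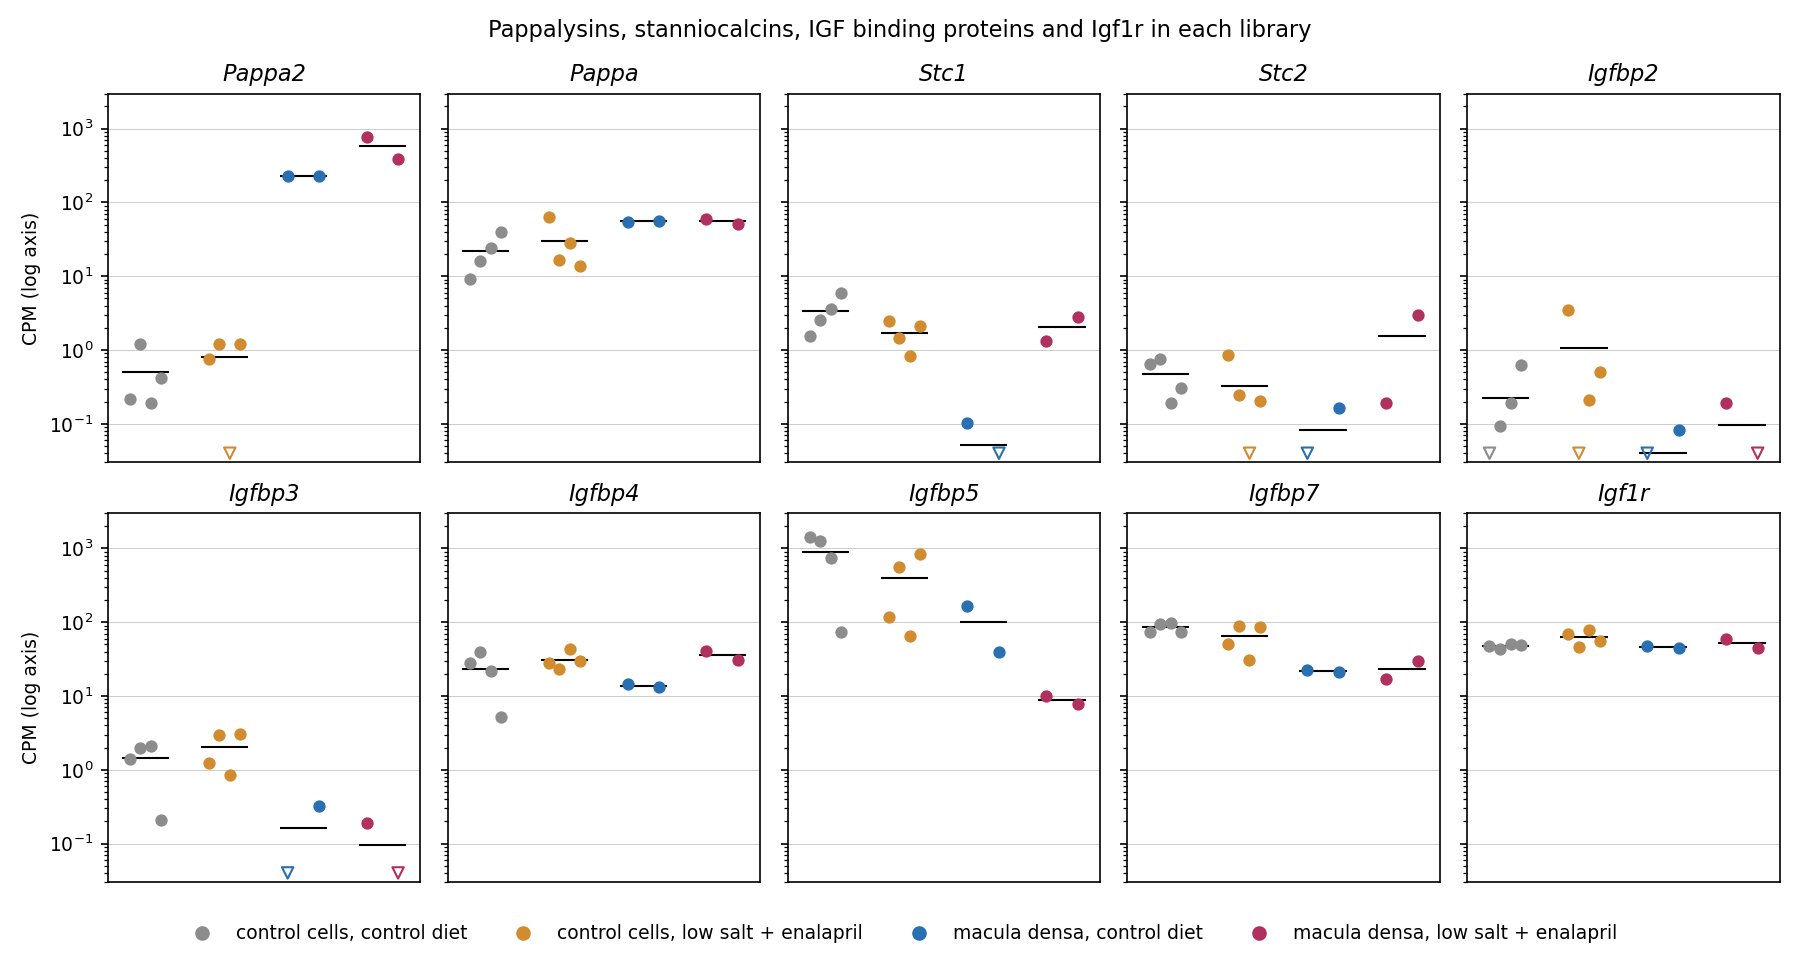
Level of each of the 10 genes in each of the 12 libraries, in CPM on a log axis, with a dot per library, a bar at the group mean and an open triangle where a library held 0 counts. Pappa2 reaches 228 to 774 CPM in macula densa libraries and at most 1.22 CPM in control cells, while Igf1r lies between 42.8 and 77.3 CPM in all 12 libraries.

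Pappa2 had the largest difference between populations of the tested members, and was far higher in macula densa cells on both diets. On control diet the macula densa libraries held 228 and 231 CPM, from 2224 and 2832 counts. The 4 control-cell libraries on that diet held 0.219, 1.22, 0.190 and 0.413 CPM, from 2 to 13 counts. Under LS the macula densa libraries held 774 and 383 CPM, and control cells held 0.769, 1.22, 0 and 1.22 CPM, where the library at 0 counts allows up to 0.630 CPM. Every macula densa library was above every control-cell library on both diets. The log2 fold change was 8.75 (95% interval 7.28 to 10.21, edgeR adjusted p 5.52e-05) on control diet and 9.41 (7.93 to 10.90, edgeR adjusted p 3.16e-05) on LS. Within the 4 pairs of libraries that share a description number, the log2 ratio of macula densa to control cells was 7.30 and 9.11 on control diet and 9.06 and 8.05 on LS. The call held in all 24 alternatives on each diet.

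Per kilobase of exon, a scale that allows genes of different length to be compared, Pappa2 measured 22.3 ± 0.175 CPM per kb (SD, n = 2) in macula densa cells on control diet and 56.2 ± 26.9 CPM per kb (SD, n = 2) on LS. Among 16296 nuclear protein-coding genes this placed it at ranks 146 and 149 on control diet and at ranks 32 and 77 on LS. In control cells its rank was never better than 12760. Pappa2 lies on chromosome 1 from 158711727 to 158980490 on the minus strand, and 310 bp of its exons also belong to the noncoding gene 1600012P17Rik on the same strand, so reads there cannot be assigned with certainty.

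Pappa, the gene of the other pappalysin, was present in both cell populations. It measured 55.2 and 56.7 CPM in macula densa cells on control diet and 59.8 and 51.0 CPM on LS. Control cells held 9.29, 16.2, 24.3 and 39.7 CPM on control diet and 62.9, 16.4, 28.4 and 13.6 CPM on LS. The macula densa libraries were within 1.17-fold of each other on a diet, while control cells spread 4.27-fold and 4.61-fold. On control diet every macula densa library was above every control-cell library, and on LS 1 control-cell library, replicate 1, was above both.

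The difference in Pappa did not pass the test on either diet, with log2 fold changes of 1.32 (95% interval 0.078 to 2.57, edgeR adjusted p 0.180) and 0.86 (-0.40 to 2.12, edgeR adjusted p 0.381). Averaged over both diets it was 1.09 (0.21 to 1.98, edgeR adjusted p 0.0761), and passed in 7 of 23 alternatives. In fits of all 12 libraries, the averaged difference passed with limma voom (adjusted p 0.0146) and the DESeq2 Wald test (adjusted p 0.0499). It also passed there with edgeR on library totals alone (adjusted p 0.0251). On control diet limma voom called it (1.63, limma voom adjusted p 0.0426), and on LS none of these settings did. The 3 control-cell libraries poor in endothelium and podocyte markers were the 3 with the most Pappa. In the subset of 8 libraries whose description numbers pair, an alternative chosen after seeing the data, the log2 fold changes were 1.46 and 1.90 with edgeR adjusted p-values of 0.00224 and 0.000683. Without control-cell replicate 4 on control diet the difference passed on that diet (1.75, edgeR adjusted p 0.0439), as did the averaged one (1.30, edgeR adjusted p 0.0203). The averaged difference also passed without control-cell replicate 1 on LS (1.42, edgeR adjusted p 0.0140). Thick ascending limb markers moved with Pappa in control cells: their summed level was 210, 300, 353 and 501 CPM in the 4 libraries with at most 16.4 CPM of Pappa, and 803 to 1626 CPM in the other libraries. Collecting duct, intercalated cell, distal convoluted and connecting tubule, and macula densa markers also had the library order of Pappa in control cells on control diet. On LS the intercalated cell markers, like Pappa, were highest in replicate 1 (113 CPM), and the thick ascending limb markers in replicate 3 (1063 CPM). In macula densa libraries the thick ascending limb markers summed to 2454 to 4307 CPM and the intercalated cell markers to 17.1 to 31.5 CPM. The part of any of these cells in the Pappa difference was not tested.

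The balance between the pappalysins differed between the populations. Per kilobase of exon, Pappa2 was 4.43 and 4.36 times Pappa in macula densa libraries on control diet, and 13.9 and 8.04 times on LS. In control cells it was at most 0.0959 times Pappa. Pappa itself measured 5.07 ± 0.0965 CPM per kb in macula densa cells on control diet and 5.02 ± 0.561 CPM per kb on LS (SD, n = 2 each). No test was run on the ratio.

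**Figure D2:**
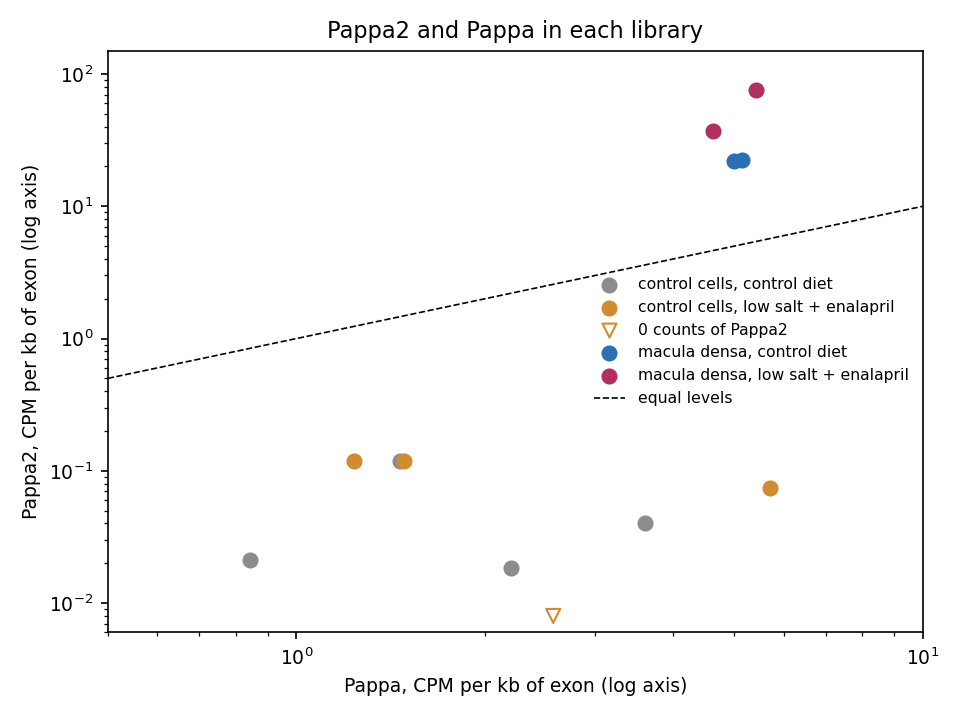
Pappa2 against Pappa in each of the 12 libraries, both in CPM per kb of exon on log axes, with a dashed line of equal levels and an open triangle for the control-cell library with 0 counts of Pappa2. The 4 macula densa libraries lie above the line by 4.36 to 13.9 times, and all 8 control-cell libraries lie below it.

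Stc1, which encodes an inhibitor of the pappalysins, was scarce. On control diet the macula densa libraries held 1 and 0 counts, and the control-cell libraries 1.53, 2.54, 3.62 and 5.89 CPM, from 14 to 57 counts. Under LS the macula densa libraries held 7 and 17 counts, or 1.34 and 2.79 CPM, against 2.46, 1.47, 0.840 and 2.14 CPM in control cells. Stc1 was under the floor in macula densa cells on control diet, and on LS the populations overlapped. On control diet it passed as lower in macula densa cells (edgeR adjusted p 0.00601). Summed counts, 1 against 136, gave a level 74.9 times higher in control cells, with a 95% interval of 13.2 to 2982 that covers counting error only. With LS the log2 fold change was 0.21 (95% interval -1.18 to 1.60, edgeR adjusted p 0.867). Without macula densa replicate 2 on control diet, the library at 0 counts, the edgeR adjusted p was 0.126 on that diet and 0.0528 averaged over both, beside 0.00751 with all libraries. Collecting duct principal cell markers moved with Stc1 in control cells. In control cells the 7 markers summed to 117, 278, 420 and 808 CPM on control diet and to 345, 173, 102 and 271 CPM on LS, which on each diet is the same order of libraries as for Stc1. In macula densa cells they summed to 36 and 15 CPM on control diet and to 10.7 and 28.5 CPM on LS, and 5 of the 7 passed as lower there on control diet. Their part in the Stc1 difference was not tested. Exons of Stc1 overlap those of the antisense gene Gm41192 by 229 bp, and no source used here says that counting used strand.

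Stc2, the gene of the other stanniocalcin, held 0 to 11 counts in 11 libraries and did not pass the filter. Macula densa replicate 2 on LS held 18 counts, or 2.95 CPM, and the other 3 macula densa libraries 0, 2 and 1. The same library had the higher Stc1 of its pair. One library of a pair gives no replicate check.

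Of the binding proteins, Igfbp7 and Igfbp5 were the most abundant per kilobase of exon in control cells on control diet, at 70.3 ± 10.4 and 147 ± 102 CPM per kb (SD, n = 4 each), followed by Igfbp4 at 5.31 ± 3.19 CPM per kb. In macula densa cells on the same diet the levels were 18.2 ± 0.610, 17.0 ± 14.7 and 3.12 ± 0.187 CPM per kb (SD, n = 2 each). The group means of Igfbp3 and Igfbp2 were at most 0.644 and 0.576 CPM per kb. The order of Igfbp5 and Igfbp7 did not hold in each library, since Igfbp5 varied far more.

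Igfbp7, whose product is a secreted matrix protein found in vessels, was lower in macula densa cells. These held, on control diet, 22.5 and 21.4 CPM against 73.9, 95.6, 96.3 and 74.3 CPM in control cells. On LS they held 17.2 and 29.7 CPM against 51.4, 88.4, 30.9 and 86.9 CPM. On both diets the groups were apart, although the lowest control-cell library, replicate 3 on LS, was just above the higher macula densa library. The log2 fold change was -1.95 (95% interval -2.85 to -1.06, edgeR adjusted p 0.0175) on control diet and -1.45 (-2.33 to -0.58, edgeR adjusted p 0.0483) on LS. Averaged over both diets it was -1.70 (-2.33 to -1.08, edgeR adjusted p 0.00198), and this call held in all 23 alternatives. The call on LS was lost in 14 of 24 alternatives, with edgeR adjusted p-values up to 0.179 when a library was left out. The call on control diet was lost without macula densa replicate 1 or 2 on that diet (edgeR adjusted p 0.107 and 0.172). Of the 3 control-cell libraries poor in endothelium markers, replicates 3 and 1 on LS held the least Igfbp7 of all control cells, 30.9 CPM at 306 CPM of markers and 51.4 CPM at 416 CPM. The third, replicate 4 on control diet, held 74.3 CPM at 57.1 CPM of markers, while the marker-rich libraries held 73.9 to 96.3 CPM. The part of endothelium in the Igfbp7 difference was not tested. Exons of Igfbp7 overlap those of Polr2b on the other strand by 85 bp.

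Igfbp5, which encodes a binding protein cut by both pappalysins, varied most among control cells. On control diet control cells held 1424, 1277, 746 and 73.4 CPM and macula densa cells 164 and 39.6 CPM. Under LS control cells held 116, 558, 64.9 and 835 CPM and macula densa cells 9.96 and 7.71 CPM. Control-cell replicate 4 on control diet was below a macula densa library, so the groups overlapped on that diet and did not overlap on LS. Its rank among protein-coding genes per kilobase ran from 6 to 426 in control cells and reached 4362 and 5482 in macula densa cells on LS. The log2 fold change was -3.11 (95% interval -5.80 to -0.41, edgeR adjusted p 0.148) on control diet, -5.48 (-8.61 to -2.35, edgeR adjusted p 0.0407) on LS and -4.29 (-6.35 to -2.23, edgeR adjusted p 0.00814) averaged over both. Without control-cell replicate 4 on control diet that diet passed too (edgeR adjusted p 0.0324), as it did in the 8 libraries paired by description number (-3.31, edgeR adjusted p 0.00344). Within those pairs the log2 ratio was -2.95 and -4.23 on control diet and -5.78 and -6.72 on LS. The call on LS was lost in 9 of 24 alternatives. With all libraries it was lost with limma voom (adjusted p 0.103), with title numbers as replicate blocks and at a threshold of 0.01. It was also lost without either macula densa library on that diet, and without control-cell replicate 2 or 3 on control diet (edgeR adjusted p 0.0503 and 0.0618). The same held with control-cell replicate 2 or 4 on LS removed (edgeR adjusted p 0.0717 and 0.0705). With a library left out the log2 fold change on LS ran from -5.83 to -4.81. The averaged call was lost without macula densa replicate 2 on LS (edgeR adjusted p 0.0541).

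Markers of other cell types moved with Igfbp5. The 5 control-cell libraries with 558 to 1424 CPM of Igfbp5 were the 5 with at least 1015 CPM of endothelium markers, and the 3 with 64.9 to 116 CPM had 57.1 to 416 CPM. In macula densa cells the library with 164 CPM of Igfbp5 had 205 CPM of endothelium markers and 174 CPM of podocyte markers, and the library with 39.6 CPM had 30.2 and 29.3 CPM. With LS the macula densa libraries had 18.6 and 14.4 CPM of endothelium markers, with Plvap at 0 counts in both. The part of these cells in the Igfbp5 differences, between populations and between diets, was not tested.

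**Figure D3:**
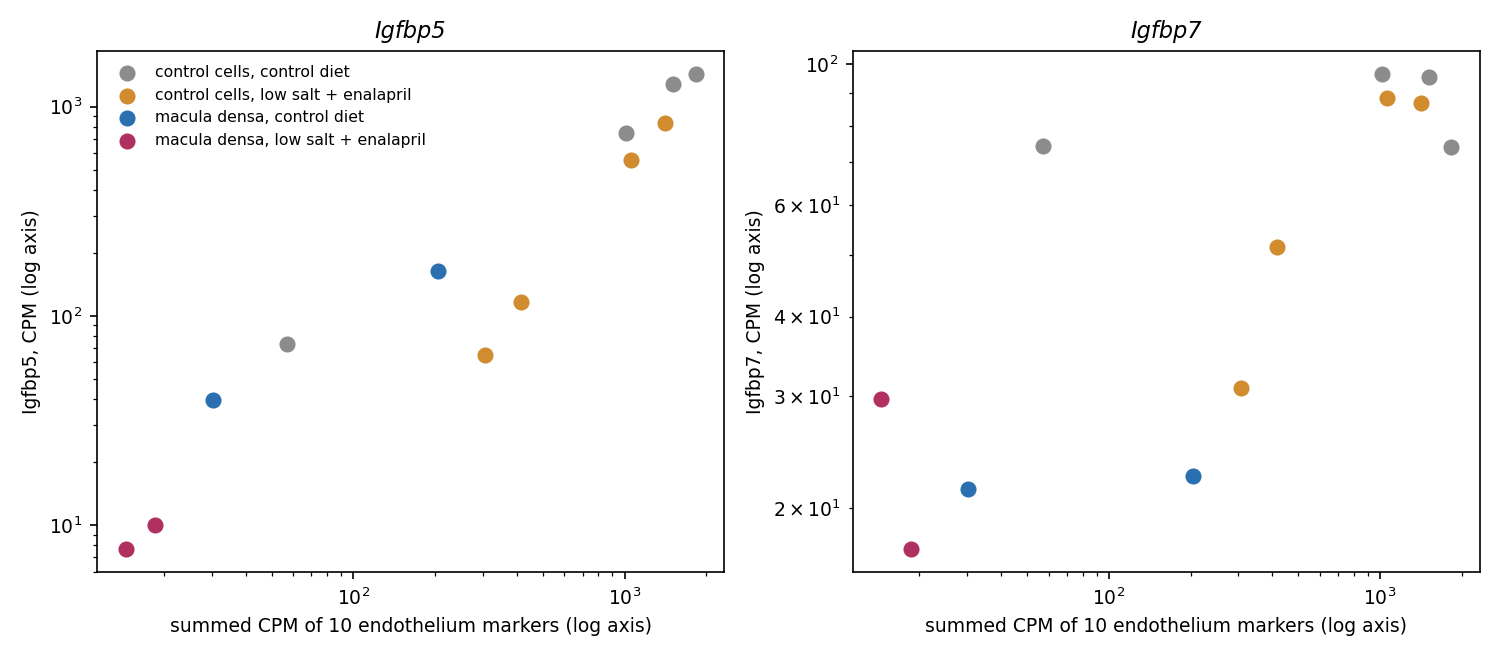
Igfbp5 (left) and Igfbp7 (right) in CPM against the summed CPM of 10 endothelium markers in each of the 12 libraries, on log axes. The 5 control-cell libraries with at least 1015 CPM of markers hold 558 to 1424 CPM of Igfbp5, and the 3 with 306, 416 and 57.1 CPM of markers hold 30.9, 51.4 and 74.3 CPM of Igfbp7.

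Igfbp4, which encodes the preferred substrate of the protease made from Pappa, did not pass between populations on either diet. It measured 14.4 and 13.2 CPM in macula densa cells against 27.8, 38.9, 22.0 and 5.17 CPM in control cells on control diet. On LS it measured 40.6 and 30.7 CPM against 28.4, 23.5, 42.8 and 29.9 CPM. The log2 fold changes were -0.77 (95% interval -1.96 to 0.43, edgeR adjusted p 0.434) and 0.19 (-0.95 to 1.34, edgeR adjusted p 0.848). Without control-cell replicate 4 on control diet, at 5.17 CPM, the first was -1.10 with an edgeR adjusted p of 0.0266, and in the 8 libraries paired by description number it was -1.15 (edgeR adjusted p 0.0210).

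Igfbp3, which encodes the main circulating binding protein and a substrate of the protease made from Pappa2, was close to the floor in macula densa cells. They held 0 and 4 counts on control diet and 1 and 0 on LS. Control cells held 1.42, 1.97, 2.10 and 0.207 CPM on control diet and 1.23, 2.94, 0.840 and 3.05 CPM on LS. On neither diet did the difference pass (edgeR adjusted p 0.135 and 0.0882), and averaged over both it passed as lower in macula densa cells (edgeR adjusted p 0.0153). Without macula densa replicate 2 on LS that edgeR adjusted p was 0.0654. Both diets passed once control-cell replicate 4 on control diet, at 2 counts, was left out (edgeR adjusted p 0.0348 and 0.0359), and in the 8 libraries paired by description number (0.0380 and 0.0227). Endothelium and podocyte markers moved with Igfbp3 in control cells. The 5 control-cell libraries with at least 1015 CPM of endothelium markers held 1.42 to 3.05 CPM of it, and the 3 poor ones 0.207, 0.840 and 1.23 CPM. In macula densa cells on control diet the library with 205 CPM of endothelium markers held 0 counts of Igfbp3. The library with 30.2 CPM held 4. The part of endothelium and podocytes in the Igfbp3 difference was not tested. Summed counts, 4 against 58 on control diet and 1 against 62 on LS, gave levels 7.99 times (95% interval 2.96 to 30.3) and 22.1 times (3.83 to 888) higher in control cells, for counting error only. Igfbp2 had at most 1 count in each macula densa library and 0 to 6 in 7 control-cell libraries. The exception was control-cell replicate 1 on LS with 46 counts, or 3.54 CPM, which was also the control-cell library with the most Pappa.

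Igf1r, the gene of the signalling receptor for IGFs, was the most even member. It measured 48.0 and 44.4 CPM in macula densa cells against 46.9, 42.8, 51.1 and 48.8 CPM in control cells on control diet. Under LS it measured 59.8 and 44.8 CPM against 70.0, 45.8, 77.3 and 56.5 CPM. Averaged over both diets the log2 fold change was -0.15 with a 95% interval of -0.50 to 0.21 (edgeR adjusted p 0.572), an interval under 1 log2 unit in either direction. Its value was 0.069 when libraries were scaled by their totals alone, a scaling that moves the median of all genes from -0.06 to 0.14 in that comparison.

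Of the 8 tested members, 3 passed on control diet, with Pappa2 higher and Stc1 and Igfbp7 lower, where 6.61% of all tested genes passed, 2.69% as higher and 3.92% as lower. With LS 3 passed, with Pappa2 higher and Igfbp5 and Igfbp7 lower, where 7.27% passed, 3.15% as higher and 4.13% as lower. Averaged over both diets 5 passed, with Pappa2 higher and Stc1, Igfbp3, Igfbp5 and Igfbp7 lower, where 21.3% passed, 7.48% as higher and 13.9% as lower. For Stc1 the averaged call rests on control diet, since on LS its log2 fold change was 0.21. The groups did not overlap for 31.9% of genes on control diet and 34.8% on LS, so lack of overlap alone is common here. Without control-cell replicate 4 on control diet, 7 members passed on that diet. There 2490 of 14079 tested genes passed, beside 938 of 14180 with all libraries, so the rise was not particular to the members. The calls of Stc1 and Igfbp7 on control diet were lost without macula densa replicate 2, which leaves 1 library in its group.

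**Figure D4:**
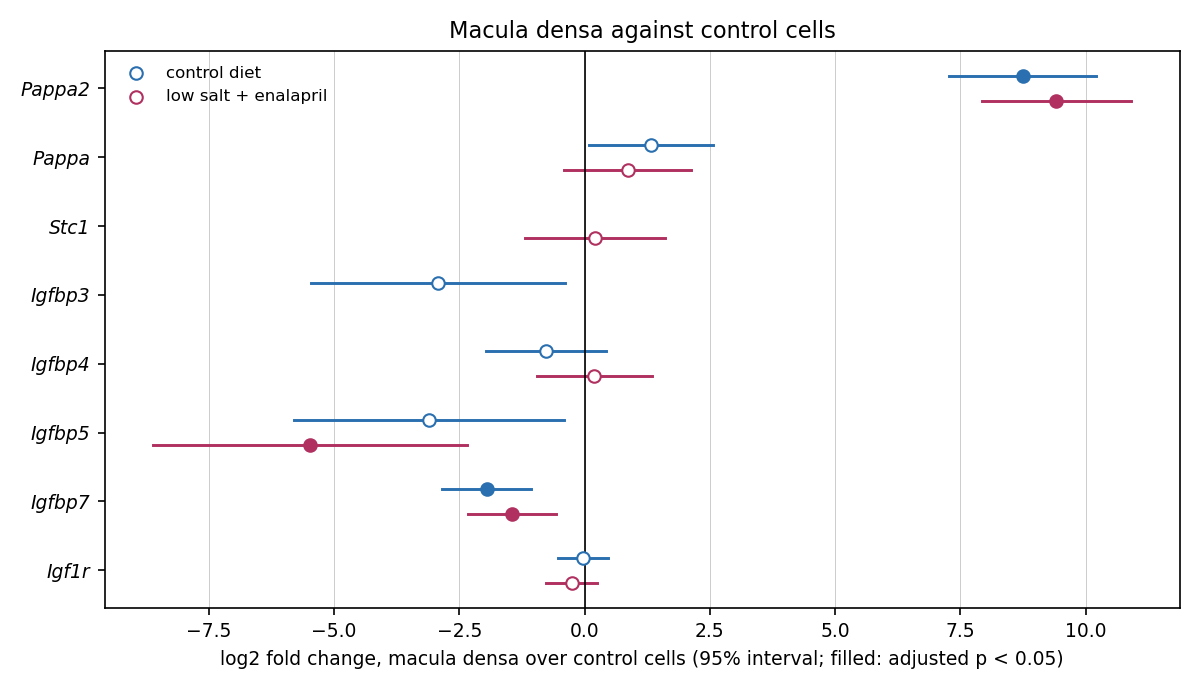
Log2 fold change of macula densa over control cells for the tested members on each diet, with 95% intervals and filled points where the edgeR adjusted p is under 0.05. Stc1 on control diet and Igfbp3 on LS are left out because the macula densa libraries held at most 1 count, and Pappa2 stands at 8.75 and 9.41 while Igf1r stays near 0.

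The other genes of the pathway were read from a list of 57, of which 49 could be tested. On control diet 2 passed as higher in macula densa cells and 0 as lower, where 2.69% and 3.92% of all tested genes did. On LS 2 and 2 passed, where 3.15% and 4.13% of all did. Averaged over both diets 3 and 7 passed, where 7.48% and 13.9% of all did. The counts are no result about these genes. Their median log2 fold change averaged over both diets was -0.10, beside -0.06 for all genes. The ligands were scarce in both populations. Igf1 had at most 17 counts in a library and averaged, on control diet, 0.765 ± 0.646 CPM in the 2 macula densa libraries and 1.39 ± 0.498 CPM in the 4 control-cell libraries (SD). On LS it had 0 and 1 counts in macula densa cells, and it passed as lower there averaged over both diets (edgeR adjusted p 0.0458). Igf2 held 0 counts in both macula densa libraries on LS and at most 11 in any library. Igfals, which encodes the carrier of the circulating IGF complex, had at most 8 counts in a library, and Igfbp1 at most 13.

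Among receptors, Igf2r, which encodes the receptor that clears the second IGF and sorts lysosomal enzymes, was higher in macula densa cells on both diets. On control diet its level was 50.0 ± 6.59 CPM (SD, n = 2) beside 24.8 ± 2.90 CPM (SD, n = 4) in control cells, and the log2 fold change was 1.01 (edgeR adjusted p 0.00786). Under LS its level was 49.2 ± 3.52 CPM (SD, n = 2) beside 29.5 ± 2.01 CPM (SD, n = 4), a log2 fold change of 0.74 (edgeR adjusted p 0.0334). Insr, the insulin receptor gene, had log2 fold changes of -0.24 and -0.19 with edgeR adjusted p-values of 0.646 and 0.707. Insrr, a related receptor known from intercalated cells, had log2 fold changes of -2.87 and -0.86 that did not pass (edgeR adjusted p 0.163 and 0.677).

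Downstream of the receptor, Pik3r1, which encodes the regulatory subunit of phosphoinositide 3-kinase, was higher on both diets. Its level on control diet was 136 ± 26.6 CPM (SD, n = 2) beside 43.5 ± 8.16 CPM (SD, n = 4) in control cells, and on LS 146 ± 56.8 CPM (SD, n = 2) beside 33.0 ± 1.37 CPM (SD, n = 4). The log2 fold changes were 1.64 and 2.15 with edgeR adjusted p-values of 0.00311 and 0.000666. Averaged over both diets, Pik3cb, a catalytic subunit, the adaptor gene Shc1 and the transcription factor gene Foxo1 were lower, with log2 fold changes of -1.58, -0.57 and -1.23 and edgeR adjusted p-values of 0.0325, 0.0497 and 0.0361. Of the 34 tested signalling genes, 29 did not pass in that comparison and 5 did, where 21.3% of all tested genes passed, so the count is no result about these genes.

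Other proteases that can cut binding proteins were lower or not called. Plat, the tissue plasminogen activator gene, stood at 1.04 ± 1.24 CPM on LS (SD, n = 2 macula densa libraries) beside 156 ± 79.2 CPM (SD, n = 4 control-cell libraries) (edgeR adjusted p 0.0288). Htra1 held 1 count in each of the same macula densa libraries against 8.87 ± 6.55 CPM (SD, n = 4) in control cells (edgeR adjusted p 0.0357). Adam12 passed only in the average over both diets (edgeR adjusted p 0.0414). Of the 6 such genes tested, 0 were called higher in macula densa cells in any of these comparisons. Of all tested genes 2.69% were on control diet, 3.15% on LS and 7.48% in the average, so 0 of 6 is no result about these genes. Plat was at 3.82 CPM in the control-cell library on control diet with 57.1 CPM of endothelium markers, and at 172 to 282 CPM in the others on that diet. The part of those cells was not tested.

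Between diets, no member passed in macula densa cells, where 0% of all genes passed and 1594 of 14180 had an unadjusted p under 0.05. DESeq2 called 93 genes there and limma voom 4. Pappa2 measured 774 and 383 CPM on LS against 228 and 231 CPM, a log2 fold change of 1.33 (95% interval -0.039 to 2.71, edgeR adjusted p 0.459). Igfbp4 measured 40.6 and 30.7 against 14.4 and 13.2 CPM, with a log2 fold change of 1.37 (0.01 to 2.73, edgeR adjusted p 0.443). Igfbp5 measured 9.96 and 7.71 against 164 and 39.6 CPM, with a log2 fold change of -3.53 (-6.50 to -0.56, edgeR adjusted p 0.374). With the 4 macula densa libraries fitted alone these 3 passed, with edgeR adjusted p-values of 0.0381, 0.0216 and 0.00695. In that fit 105 of 11321 tested genes passed. Without macula densa replicate 1 on LS the Pappa2 log2 fold change in the fit of all libraries was 0.67.

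Stc1 held 24 counts over the macula densa libraries on LS and 1 on control diet, a ratio of 46.7 with a 95% counting interval of 7.62 to 1921. Its edgeR adjusted p was 0.215, and the unadjusted p was 0.000446. Stc1 did not overlap between diets, nor did Pappa2, Igfbp4 and Igfbp5, but with 2 libraries a group 40.6% of genes did not. Pappa, Igfbp7 and Igf1r had log2 fold changes of -0.015 (95% interval -1.50 to 1.47), 0.10 (-0.85 to 1.05) and 0.18 (-0.40 to 0.76). Igfbp3 stayed at 0 to 4 counts.

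In control cells no member passed between diets, where 0.00705% of genes did, with edgeR adjusted p-values from 0.800 to 0.996. The log2 fold change of Stc1 was -0.91 with a standard error of 0.50, that of Igf1r 0.40 (-0.01 to 0.81) and that of Igfbp5 -1.16 (-3.05 to 0.72). For each of the 8 tested members the libraries of the diets overlapped, where 4.20% of genes did not. The diet effects in the populations were compared directly in the same fit, and 0 members passed, with 0 of all genes passing, 997 at an unadjusted p under 0.05, 13 called by DESeq2 and 0 by limma voom. Stc1 had the smallest unadjusted p of the members there, 0.000258, with an edgeR adjusted p of 0.394. The difference of the diet effects for Pappa2 was 0.67 with a standard error of 0.93 (edgeR adjusted p 0.917), with a 95% interval of -1.35 to 2.69.

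**Figure D5:**
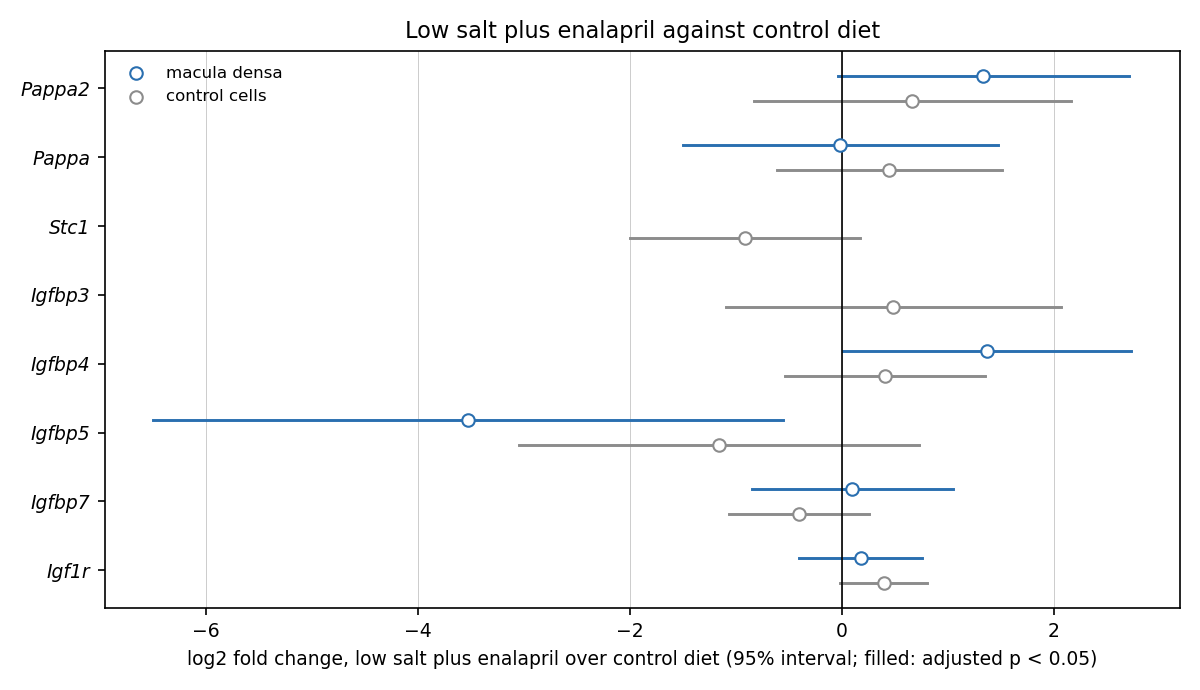
Log2 fold change of LS over control diet for the tested members in macula densa and control cells, with 95% intervals and open points throughout because 0 members passed an edgeR adjusted p of 0.05. Stc1 and Igfbp3 in macula densa cells are left out for their low counts, and Pappa2, Igfbp4 and Igfbp5 lie at 1.33, 1.37 and -3.53 in macula densa cells.

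The genes whose pattern over the 12 libraries was most like that of a member were found by the standard deviation of the log2 CPM difference from it, among 6687 other genes with a mean of at least 5 CPM. For Pappa2, which itself had a standard deviation of 4.48, these were Nos1 at 0.94, Ptgs2 at 1.68, Frem1 at 2.01, Sfrp1 at 2.37 and Pamr1 at 2.37. Nos1 measured a mean of 141 CPM in macula densa libraries and 0.444 CPM in control cells, and was the only gene within 1 log2 unit of Pappa2 by this measure. For Igfbp5 the nearest were Pi16 at 0.35 and Itga9 at 0.47, against its own 2.60. For Igfbp7 they were Lrrk1 at 0.31 and Bcam at 0.32, and for Igfbp4 Tagln2 at 0.26 and Itpr3 at 0.37. Pappa was nearest to Itgb6 and Elmo3, both at 0.34, and Igf1r to Tcf25 at 0.11 and Wdr33 at 0.15, close to its own 0.27. Stc1 and Igfbp3, both under 5 CPM, were nearest to Hes1 and Hist1h2bc (0.65 and 0.73) and to Plpp3 and Rin3 (0.49 and 0.56). Libraries share depth and sorted cells, so likeness over 12 libraries is a description.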

How the data were processed

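The authors deposited estimated counts per gene for 12 libraries. STAR 2.61, Partek and the build mm10 are named in the submitters' processing notes, without their roles, and a strand-marking kit for small inputs of total RNA was used, per the labels' protocols; annotation and strand of the counting are not given in the sources used here. Values were rounded, since 15.0% were not whole, and 0 columns lacked a sample. Symbols and positions of 23351 genes matched GENCODE M21 once 1 was taken from each end. Genes were filtered with filterByExpr (count minimum 10, total minimum 15), which left 14180. They were scaled by TMM and tested in one quasi-likelihood fit of all 12 libraries with edgeR 4.0.16 in R 4.3.3, with Benjamini-Hochberg adjustment over all genes at 0.05. DESeq2 1.42.0 and limma 3.58.1 gave alternatives. On simulated counts, 66.5% of 200 genes changed 4-fold were recovered in the averaged cell comparison (13657 genes tested), 24% between diets in macula densa cells (13788) and 54% in control cells (13662). The false calls among unchanged genes were 8, 0 and 14 in the same order. None of the 14 pairs of libraries within a group agreed within sampling noise. The members and gene lists were chosen with earlier results of these data known. All members are named, pathway genes where they passed (1 is not reported here) or as ligands, binding proteins and receptors, and 5 (Pappa2) or 2 most similar genes. Log2 CPM used a prior count of 2. Intervals of summed counts are exact binomial and cover counting error only.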

Additional observations from a re-analysis of the deposited data

How the results depend on the processing

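The number of members called on control diet, 3, was 5 with limma voom and 7 with the 8 libraries paired by description number (chosen after seeing the data), and ran from 1 to 7 with a library left out. On LS, where it was 3, it was 1 with limma voom, with a threshold of 0.01 and with the replicate block by title number, 5 with the 8 libraries, and 1 to 4 with a library left out. Averaged over diets, where it was 5, it was 3 with a mean of at least 5 CPM, which leaves out Stc1 and Igfbp3, and 3 to 6 with a library left out. Between diets in macula densa cells 0 became 3 with only the groups compared. Over all genes the counts ran from 122 to 2490, 194 to 2281 and 1301 to 3968 in the cell comparisons, beside 938, 1031 and 3027, and from 0 to 105, 0 to 74 and 0 to 13 between diets and for the difference of diet effects, beside 0, 1 and 0. Scaling by totals alone turned the split of higher and lower calls from 382 and 556 to 542 and 328, from 446 and 585 to 736 and 392, and from 1061 and 1966 to 1827 and 1450. Leaving out a macula densa library leaves its group with 1, assumed to vary like the others.

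The numbers in titles and descriptions disagree on pairs, so they were not taken as pairing in the main fit. Deviations of same-numbered libraries correlated over 0.1 in 2 of 14 title pairs and 1 of 4 description pairs. The same held for 12 of 34 pairs that share neither number. These correlations cannot decide on pairing, because in a group of 2 libraries the deviations from the group mean are mirror images. With the replicate block by description number, 6 members passed on control diet and 5 on LS, where 2292 and 2231 of 14180 genes did. Those added were Pappa (1.49), Igfbp4 (-1.09) and Igfbp5 (-3.59, edgeR adjusted p 0.000176) on control diet, and Pappa (1.88) and Igfbp3 on LS. This block allows no test between diets.

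Of 1106 member values in the alternatives, 36 changed sign, none of them a called value, and the cause was not tested. Igf1r between populations on control diet was 0.14 with library totals alone and 0.059 with the title block, and ran from -0.076 to 0.070 with a library left out. On LS it was 0.017 with the description block and 0.029 with the 8 libraries, and averaged 0.069 with totals alone and 0.000891 with the 8 libraries. Igfbp4 on LS was -0.13 with the title block and ran from -0.076 to 0.38, and Stc1 from -0.46 to 0.57. Between diets in macula densa cells Pappa was 0.014 with DESeq2 size factors and its Wald test, 0.011 with genes of 5 CPM or more, 0.0024 with only the groups compared, and -0.20 to 0.038 with a library left out. Igfbp7 was -0.031 without a filter and -0.41 to 0.36, Igfbp3 -3.80 to 2.78 and Igf1r -0.12 to 0.31. In control cells Pappa was -0.44 with the 8 libraries and -0.21 to 0.88, and Igfbp4 -0.18 with the 8 libraries. For the difference of diet effects Pappa was 0.39 with the description block, 0.43 with the 8 libraries and -0.90 to 0.19, Igf1r 0.037 and 0.056, Pappa2 -0.27 to 1.02, Igfbp3 -4.29 to 2.29 and Igfbp7 -0.0058 to 0.76. Counts of 0 to 57 limit Stc1, Stc2, Igfbp2 and Igfbp3.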
